A study of Mus musculus with 18 samples.

Results

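Trimethylation of histone H3 at lysine 27 (H3K27me3) was compared between T cell acute lymphoblastic leukaemia (T-ALL) and normal CD4+/8+ double-positive (DP) thymocytes of the mouse. The regions described are all rows of the authors' H3K27me3 comparison list that lie on autosomes, which are 22579 of the 22682 H3K27me3 regions, the other 103 being on X, and of 60531 regions in the 4 lists of the series. The T-ALL group holds 2 H3K27me3 libraries from tumours overexpressing Notch1-IC, the intracellular, active form of the receptor Notch1, and the DP group holds 2 H3K27me3 libraries from normal thymus. The 2 groups thus differ both in the oncogene and in being tumour or normal tissue, and these differences cannot be told apart. Strain, age, the promoter or vector that drove Notch1-IC, and whether libraries came from separate animals are points that the sources used here do not give. Both groups were fixed with formaldehyde and cut to mononucleosomes with micrococcal nuclease. The labelled cell types could not be checked against marker genes, since only chromatin regions on a build without a matching gene table were at hand.

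H3K27me3 is laid down by Polycomb repressive complex 2, whose catalytic subunit is Ezh2 or Ezh1, and is removed by the demethylases Utx and Jmjd3. The mark lies over silent genes of developmental regulators, often as long domains around CpG islands, and the Hox clusters are the textbook example. DP thymocytes are the stage at which T cell precursors rearrange the T cell receptor alpha gene, and Notch signalling is normally low in them. In T-ALL, activating lesions of Notch1 and loss of Polycomb repressive complex 2 subunits are both known.

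The list gives each region a position (mouse build mm9, starts printed 1-based) and 1 of 2 display colours, green (RGB 0,200,0) or red (200,0,0). No source used here says which colour stands for more H3K27me3 in T-ALL, so the classes are called by their colours and no direction is drawn. Because no region carries a level for each library, no spread between replicates, depth, fold change or p-value could be given. The authors' comparison chose these regions, so the presence of a difference at each is the authors' call and not a result here. All 95% intervals of shares are Clopper-Pearson intervals and cover counting error only, and regions close together are not independent.

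Red regions were more numerous and broader than green ones. On the autosomes 12912 regions were red and 9667 were green, which made green 42.8% of the list (42.2 to 43.5). Red regions covered 11.6 Mb and green regions 7.18 Mb, so that green made up 38.3% of the bases. The median width was 750 bp for red (middle 50% from 550 to 1025 bp) and 650 bp for green (525 to 875 bp). The classes overlapped over most of their range and parted among broad regions. Of red regions 4.99% (644) were wider than 2000 bp, against 0.972% of green (94). In the same study's H3K4me3 list the order of the colours was the other way, with 0.217% of red and 2.26% of green regions wider than 2000 bp.

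The green share differed with width. It was 56.5% (54.5 to 58.4) among the 2507 regions of exactly 500 bp, 48.9% from 525 to 700 bp, 40.8% from 725 to 1000 bp and 36.6% from 1025 to 1500 bp. Among wider regions green became rare: 26.2% from 1525 to 2000 bp, 13.2% (10.7 to 16.1) from 2025 to 3000 bp and 10.0% (11 of 110) above that. The widths also show steps. Only 19 green and 45 red regions were 475 bp wide, while 1416 green and 1091 red regions were 500 bp wide, and the numbers were lower again past 975 bp (186 green, 338 red), at 1000 bp (87 green, 146 red). The H3K4me3, H3K9ac and Notch1 lists had the same pile at 500 bp, and no Notch1 peak was narrower. Whether the calling procedure set these steps was not tested.

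**Figure D1:**
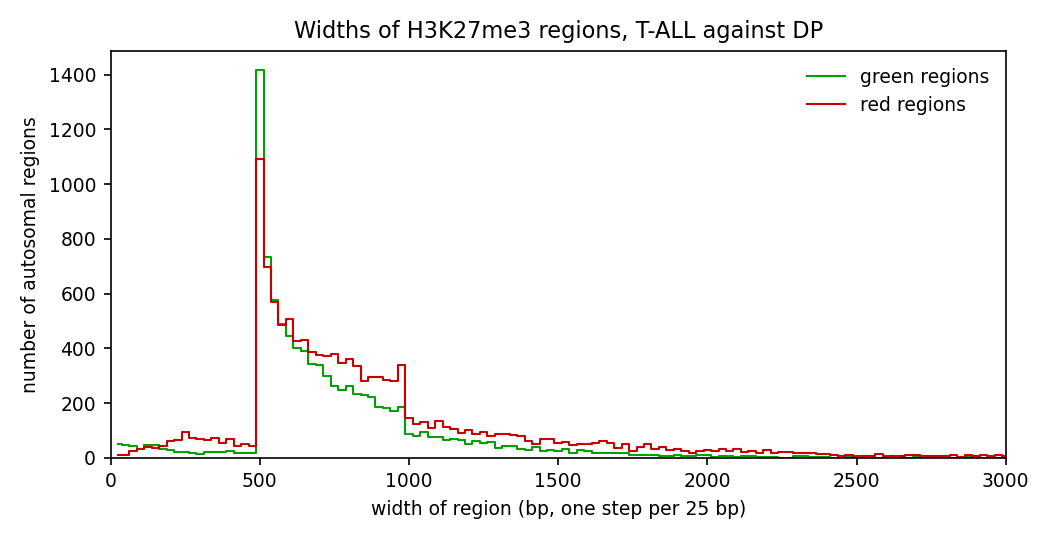
Number of autosomal H3K27me3 regions (vertical axis) at each width in bp (horizontal axis, to 3000 bp) for green and red regions. Both classes pile up at 500 bp, and the red curve lies above the green one at larger widths.

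The broadest regions of the 2 colours lay in different surroundings, as the 2 colours did in general. Among all regions, green made up 21.9% of those alone and 60.8% of those in stretches of 20 or more. The share of all red regions in stretches of 5 or fewer was not computed. The 10 broadest red regions, 4550 to 5800 bp wide, sat mostly alone or in small groups: 8 lay in a stretch of 5 or fewer H3K27me3 regions. They were found on chromosome 5 (111845576 to 111851375 and 33772676 to 33777850), chromosome 8 (73267151 to 73272250 and 94879876 to 94884900), chromosome 11 (74978076 to 74983100), chromosome 14 (13175126 to 13180075), chromosome 15 (79842001 to 79846750), chromosome 9 (21791976 to 21796700), chromosome 2 (164820301 to 164824925) and chromosome 7 (35437201 to 35441750). The 10 broadest green regions, 3175 to 4500 bp wide, all lay in stretches of 6 or more regions. None shared bases with a Notch1 peak or an H3K4me3 region, which is not particular to these 10. Of all green regions only 1.12% met a Notch1 peak (3 of 94 above 2000 bp) and 2.30% an H3K4me3 region. The broadest green region was on chromosome 14 from 63879126 to 63883625, in a stretch of 26 regions. The others of the 10 were on chromosome 11 (69594826 to 69599075, 120087226 to 120091325 and 100870726 to 100873900), chromosome 19 (59522176 to 59525725), chromosome 2 (152771826 to 152775275 and 74487526 to 74490875), chromosome 3 (96235751 to 96239200), chromosome 1 (42764301 to 42767625) and chromosome 7 (138688576 to 138691825). The region at 74487526 lay in a stretch of 83 regions, the third largest of the genome.

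A stretch here is a chain of regions of either colour in which each gap is 5 kb or less, and a cluster is such a chain of 1 colour. H3K27me3 regions were strongly grouped: 63.2% of the 22560 gaps between neighbours on a chromosome were within 5 kb, and the median gap was 1650 bp. Green regions were grouped more than red ones. Of green regions 76.6% (75.8 to 77.5) had another green region within 5 kb, against 62.6% (61.7 to 63.4) of red regions with another red one. Regions with no neighbour of either colour within 5 kb made up 9.37% of green (906) and 25.0% of red (3227). Grouped regions were also somewhat broader. The median width went from 600 bp for a green region alone among green to 725 bp in clusters of 10 or more, and for red from 700 to 825 bp. The green share in clusters was also the higher at gaps of 10 kb (82.4% against 70.5%) and 1 kb (41.7% against 35.8%). Clusters of 10 or more numbered 66 green and 39 red at 5 kb, but 101 and 93 at 10 kb, 0 and 0 at 1 kb, and 4 and 4 with regions below the median width left out.

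Long stretches held both colours side by side. The 8312 stretches included 4133 single regions, of which 21.9% were green. The green share was higher in larger stretches, at 42.0% in stretches of 2 to 4 regions, 50.0% in those of 5 to 9, 50.6% in those of 10 to 19 and 60.8% in the 45 stretches of 20 or more. Mixed stretches were 86.8% of those with 5 to 9 regions and 320 of the 326 with 10 or more. This says little about arrangement, since the class sizes alone would make 99.6% of stretches of 10 regions mixed. Listed regions covered 46.8% of the bases in the stretches of 20 or more, whose median span was 44.5 kb.

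The 4 stretches with the most regions lay on chromosomes 15, 6, 2 and 11. As background, RefSeq's mouse gene table places the Hox genes on the same 4 chromosomes, with Hoxa on 6, Hoxb on 11, Hoxc on 15 and Hoxd on 2. That table is on build GRCm38, and the regions were therefore not matched to genes by position. The largest stretch, on chromosome 15 from 102735201 to 102980775, spanned 245.6 kb and held 103 green and 32 red regions. Its colour switched 46 times from end to end, with runs of up to 11 green and up to 3 red regions. The switches and runs that the colour shares of a stretch alone would give were not computed, here or below. It held 4 Notch1 peaks and no listed H3K4me3 region. The H3K9ac list has no region anywhere on chromosome 15, so it says nothing about this stretch.

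The stretch on chromosome 6 from 52097776 to 52286725 was more even, with 67 green and 43 red regions and 52 switches. It held 15 Notch1 peaks and 7 red H3K4me3 regions, and a peak was present in 13 of its red and 1 of its green regions. On chromosome 2 from 74482001 to 74623475 there were 54 green and 29 red regions, and a Notch1 peak in 8 red and 0 green ones. The stretch on chromosome 11 from 96098876 to 96188800 held 33 green and 19 red regions. In each of these 4 stretches, green made up more of the regions than its autosomal share of 42.8%. This was not particular to them, since green made up 60.8% of regions in the 45 stretches of 20 or more, which include these 4. The stretches on chromosomes 6 (60.9%) and 11 (63.5%) were near that share. Those on chromosomes 2 (65.1%) and 15 (76.3%) were above it. A separate stretch on chromosome 11, from 96022476 to 96083075, was nearly all green, with 30 green and 2 red regions.

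The other large stretches also held both colours. On chromosome 3 from 87996251 to 88066525 there were 33 green and 16 red regions, with Notch1 peaks in 4 red and 0 green ones. The stretch on chromosome 19 from 44791351 to 44861650 held 20 green and 15 red regions, and 8 of the red ones held a Notch1 peak against 1 of the green. That on chromosome 9 from 91248776 to 91302325 held 25 green and 9 red regions. The tenth largest, on chromosome 7 from 86640226 to 86692875, held 19 green and 11 red regions, while that on chromosome 2 from 33460301 to 33513450 was the only 1 of the 10 with more red (17) than green (15). Median widths of the 2 colours within a stretch followed no single order. They were 775 bp for both on chromosome 2 from 74482001, and green was the narrower on chromosomes 19 (662.5 against 850 bp) and 7 (775 against 875 bp). Green was the broader on chromosome 15 (700 against 625 bp), chromosome 9 (650 against 550 bp) and chromosome 11 from 96022476 (812.5 against 412.5 bp, with 2 red regions).

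**Figure D2:**
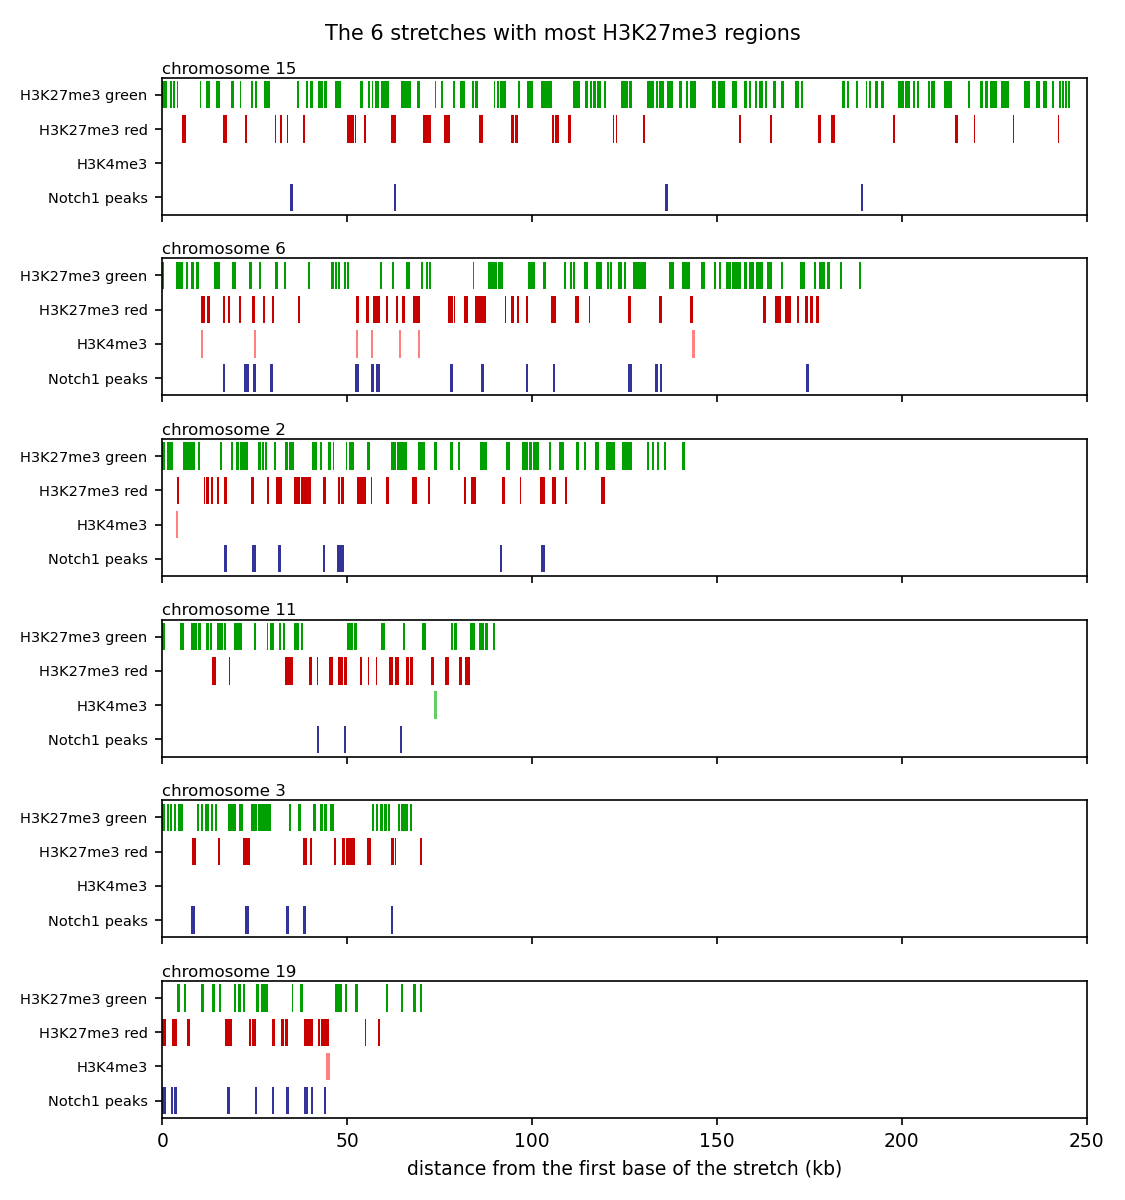
The 6 stretches with the most H3K27me3 regions, drawn to scale as distance in kb from the first base of each, with rows for green and red H3K27me3 regions, H3K4me3 regions (light green or light red by their own colour) and Notch1 peaks. Green and red H3K27me3 regions are interspersed along each stretch, and on chromosomes 6, 2, 3 and 19 most Notch1 peaks stand over red regions.

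Stretches of nearly pure colour were few. Among those of 10 or more regions, 14 held at most 1 red region and 9 at most 1 green region. The largest pure green stretch lay on chromosome 13 from 21328351 to 21372125 with 20 regions, 0 of which held a Notch1 peak. The next green ones were on chromosome 2 from 103774001 to 103798300 (14 green, 1 red) and on chromosome 3 from 96224401 to 96249950 (13 green, 1 red), again without a Notch1 peak. On the red side, the stretch on chromosome 12 from 112638876 to 112694925 held 18 red and 0 green regions, and 2 held a Notch1 peak. It was followed by chromosome 1 from 90123826 to 90163425 (16 red, 1 green) and from 75472001 to 75507075 (14 red, 1 green), with a Notch1 peak in 3 and 4 regions. Of all green regions 1.12% held a Notch1 peak, and of all red regions 24.8%. Counts of 0 in green stretches of this size therefore say nothing particular about them.

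Taken by colour, the largest clusters were larger for green. The 10 green clusters with the most regions held 22 to 33 and lay on chromosomes 15 (102771626 to 102840550, 102918876 to 102980775 and 102846201 to 102908350), 11 (96022476 to 96083075 and 96098876 to 96137575), 3 (87996251 to 88042575), 2 (74482001 to 74538125), 19 (45344076 to 45391450), 6 (52234676 to 52286725) and 9 (91258326 to 91302325). In these 10 clusters, 4 of the 260 green regions (1.54%) held a Notch1 peak, against 1.12% of all green regions. An H3K4me3 region met 0 of them, against 2.30% of all green regions. The 10 red clusters held 13 to 18 regions, and 29 of their 154 regions (18.8%) held a Notch1 peak, against 24.8% of all red regions. Apart from chromosome 12, they lay on chromosomes 10 (79787601 to 79830975 and 79760226 to 79780850), 1 (90123826 to 90163425 and 75472001 to 75507075), 19 (6485051 to 6520675), 3 (87580901 to 87619600), 15 (79309901 to 79350200), 4 (139366651 to 139399500) and 11 (98178876 to 98214300). The cluster at 90123826 on chromosome 1 stood apart in H3K4me3: 11 of its 16 red regions met a red H3K4me3 region.

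Seen in windows of 1 Mb, the regions were concentrated in a small part of the genome. Of 2407 windows between the first and last region of each autosome, 681 (28.3%) held none, and the fullest 24 held 10.9% of all regions. Both colours were present in 1260 windows, red alone in 408 and green alone in 58. The windows with the most green regions were on chromosome 15 from 102000001 (150 green, 55 red), chromosome 11 from 96000001 (101 green, 52 red), chromosome 6 from 52000001 (87 green, 43 red), chromosome 19 from 44000001 (78 green, 49 red) and chromosome 2 from 74000001 (76 green, 35 red). The windows with the most red regions were on chromosome 8 from 123000001 (95 red, 29 green), chromosome 10 from 79000001 (86 red, 32 green), chromosome 5 from 120000001 (72 red, 30 green), chromosome 7 from 51000001 (72 red, 22 green) and chromosome 10 from 80000001 (68 red, 10 green). No window was in both sets.

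Chromosomes differed in density and in colour. Chromosome 11 had the most regions per Mb (18.9), followed by chromosome 19 (17.5), and chromosome 16 the fewest (5.19). Green outnumbered red on 3 autosomes: chromosomes 19 (54.8%, 51.7 to 57.9), 13 (54.2%, 51.0 to 57.4) and 3 (51.8%, 48.5 to 55.2). The lowest green share was on chromosome 8 (31.7%, 29.0 to 34.5), with 365 green and 786 red regions. Median width hardly moved between chromosomes, from 675 to 725 bp.

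**Figure D3:**
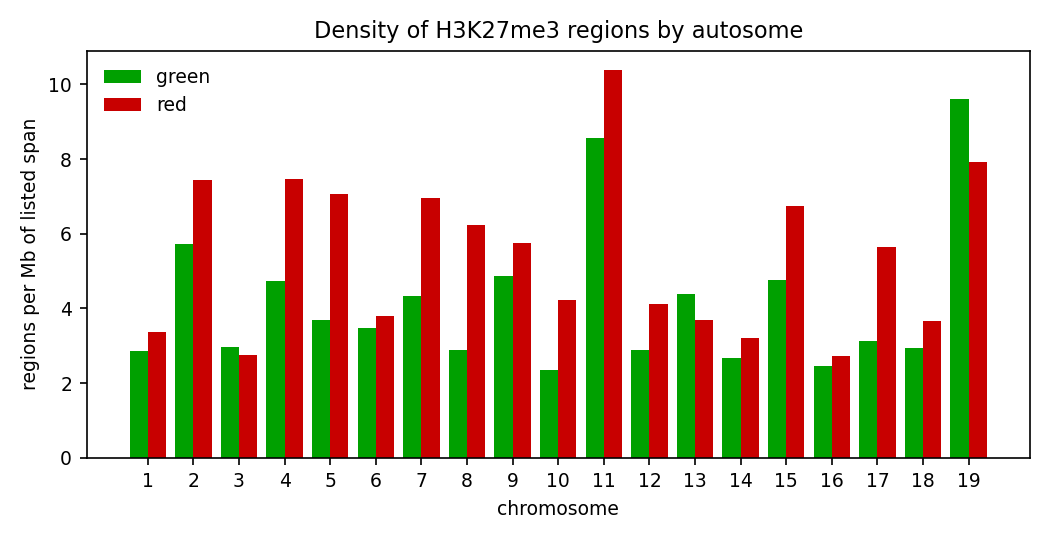
Green and red H3K27me3 regions per Mb between the first and last listed region (vertical axis) for each autosome (horizontal axis). Chromosomes 11 and 19 are the densest, and green exceeds red on chromosomes 3, 13 and 19.

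Neighbouring regions shared a colour only slightly more often than the class sizes alone would give. Of 14267 neighbouring pairs within 5 kb, 57.9% (57.1 to 58.7) had the same colour, where the class sizes alone give 51.0%. By gap, the share was 63.8% below 250 bp, 58.2% from 500 to 975 bp, 34.6% (32.3 to 37.0) at gaps of 1000 to 1175 bp and 65.4% from 2 to 5 kb. The low value came from a jump in opposite-colour pairs. Their number went from 53 at a gap of 975 bp to 208 at 1000 bp. Over gaps of 1000 to 1175 bp there were 1063 opposite pairs against 384 at 800 to 975 bp (2.77 times), while same-colour pairs numbered 563 and 508.

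Narrow regions were tied to that gap. Of the 553 green regions narrower than 500 bp, 82.1% (78.6 to 85.2) had an opposite-colour neighbour at a gap of 1000 to 1175 bp, against 6.46% of wider green regions, and for red the shares were 33.3% and 5.87%. Among regions 500 bp or wider alone, the ratio of opposite pairs above and below 1 kb was 1.30. These shares are over all autosomal regions. Narrow regions set about 1 kb from a neighbour of the other colour are also present in long stretches, but were not counted there. Their part in the mixture of colours was not tested further.

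**Figure D4:**
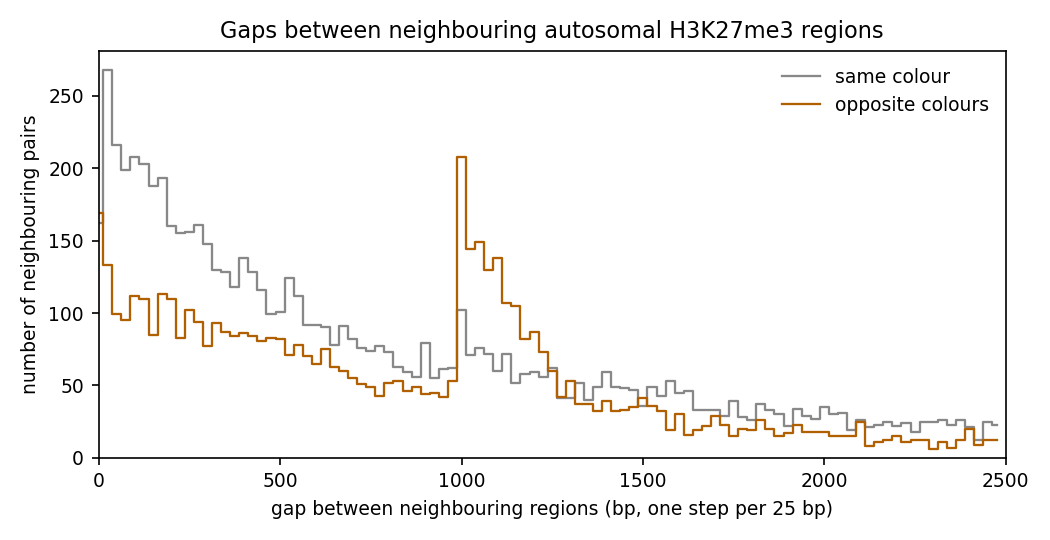
Number of neighbouring pairs of autosomal H3K27me3 regions (vertical axis) at each gap in bp (horizontal axis) for pairs of the same colour and of opposite colours. Opposite-colour pairs jump from 53 at 975 bp to 208 at 1000 bp, while same-colour pairs go from 62 to 102.

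Notch1 binding, measured in 1 T-ALL library and given in a list of its own, differed by colour. A Notch1 peak shared bases with 3202 red regions (24.8%, 24.1 to 25.6) and with 108 green ones (1.12%, 0.917 to 1.35). Taken from the other side, 22.6% of the 14541 autosomal Notch1 peaks met a red region and 0.701% a green one. The share in red regions was larger in broader ones. It was 15.4% (14.4 to 16.5) at 500 to 700 bp, 23.1% at 725 to 1000 bp, 37.9% at 1025 to 1500 bp, 47.3% at 1525 to 2000 bp and 56.2% (52.3 to 60.1) above 2000 bp. In green regions it also differed with width, from 0.838% (43 of 5129) at 500 to 700 bp to 3.48% (10 of 287) at 1525 to 2000 bp and 3.19% (3 of 94) above. Wider regions hold more bases that an overlap could touch, and the part of width in these shares was not tested. Red regions with a peak had a median width of 950 bp, against 700 bp for those without, and in 88.5% of the 3352 pairs of a red region and a peak the centre of the peak lay inside the region.

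Green regions close to Notch1 peaks mostly lay beside them. A green region covered the centre of 0.0963% of Notch1 peaks, and its cover was highest 1.7 kb before (2.72%) and 1.9 kb after (2.95%) the centre. At 9 to 10 kb the green cover was 1.29% of peaks. Red cover was 20.3% at the centre, 5.05% at 1 to 2 kb and 2.69% at 9 to 10 kb. Of the 1928 green regions within 2 kb of a peak but not sharing bases with one, 1608 (83.4%) had as nearest a peak that met a red region. For red regions beside a peak in the same way, that share was 70.5% (1218 of 1728). Regions of 2 colours cannot share bases within the list, and the 1 kb gap between opposite colours lies inside this distance.

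**Figure D5:**
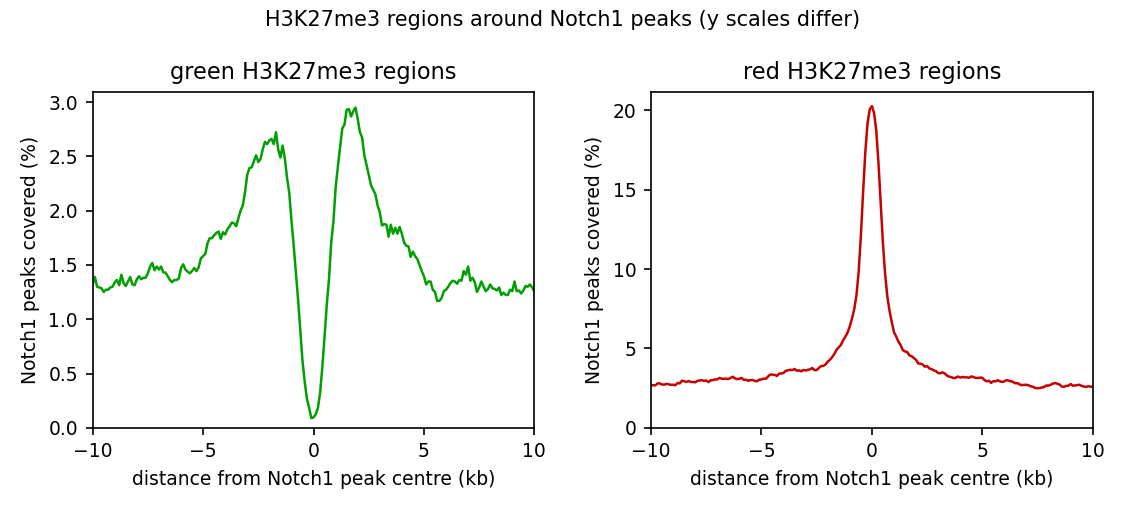
Percentage of the 14541 autosomal Notch1 peaks covered by a green (left) or red (right) H3K27me3 region at each distance in kb from the peak centre (the vertical scales differ). Green cover is lowest at the centre (0.0963%) and highest 1.7 kb before and 1.9 kb after it, and red cover is highest at the centre (20.3%).

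Green flanks were not limited to red regions with Notch1, and few red regions had them on both sides. Of red regions with a peak, 40.1% (38.4 to 41.9) had a green region within 2 kb, against 34.3% (33.4 to 35.3) of those without. Green lay within 2 kb on both sides of 318 red regions with a peak (9.93%) and of 688 without (7.09%). At widths of 500 to 1000 bp the shares with a green region within 2 kb on either side were 29.1% (26.9 to 31.4) and 28.6% (27.6 to 29.7). These 2 shares differ by less than their counting error. Green on both sides was found at those widths for 6.77% (110) of red regions with a peak and 4.95% (349) without. Read the other way, a red region with a green neighbour within 5 kb on both sides held a Notch1 peak in 29.8% of cases (378 of 1268), and one with red neighbours on both sides in 21.3% (404 of 1896), with median widths of 800 and 825 bp. Red regions alone within 5 kb held one in 25.8% (832 of 3227) at a median width of 675 bp. By cluster size, the share was 27.9% (26.6 to 29.1) for red regions alone among red, which are the narrower ones, 23.2% (22.1 to 24.3) in clusters of 2 to 4, and 22.3% and 23.1% in clusters of 5 to 9 and of 10 or more.

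H3K4me3, the mark of active and poised promoters, differed at few of the same places. A listed H3K4me3 region met 12.7% (12.1 to 13.3) of red H3K27me3 regions and 2.30% (2.01 to 2.62) of green ones. Most of these in red were themselves red (1475 regions, 11.4%), and 188 (1.46%) met a green H3K4me3 region. These 1475 make up 11.4% of red H3K27me3 regions, and 1474 red H3K4me3 regions, 13.3% of that list, met a red H3K27me3 region. Red regions that met Notch1 and red H3K4me3 together numbered 594 (4.60%). The red H3K4me3 share also went with width, from 7.53% at 500 to 700 bp to 25.2% above 2000 bp. Both marks were called from the same cell types, and how their input libraries were used is not stated in the labels.

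H3K9ac, a mark of active regulatory elements, was listed at 1878 autosomal regions, against 21127 for H3K4me3, and few H3K27me3 regions met one. Taken from the H3K9ac side, 2.52% of green (24 of 952) and 0.216% of red regions (2 of 926) met a red H3K27me3 region. For H3K4me3, counted over all autosomes, the shares were 1.85% of green and 13.3% of red regions. The H3K9ac list covers only 11 of the autosomes, so its count and shares above are not over the same chromosomes as those of H3K4me3. On these 11 autosomes, 24 of 8278 red H3K27me3 regions met a green H3K9ac region and 2 a red one. Of 6574 green H3K27me3 regions there, 1 met a green H3K9ac region and 0 a red one, which allows a share of up to 0.0561%. No listed Notch1 peak or H3K4me3 region met 96.8% of green and 67.2% of red H3K27me3 regions. These shares count shared bases only: 21.1% of green regions lay within 2 kb of a Notch1 peak and 34.9% within 5 kb.

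The authors' files open on chromosome 16 from 30061173 to 30072152, and there the list is red throughout. A stretch of 6 red and 0 green regions ran from 30060451 to 30070325 over 9.88 kb. Its middle region, from 30064901 to 30067650, was 2750 bp wide, held 1 Notch1 peak, and met 3 green H3K4me3 and 2 green H3K9ac regions. The region before it, from 30063951 to 30064875, met 1 red H3K4me3 region, and the one after, from 30068026 to 30068925, met 1 green H3K4me3 region. Red H3K27me3 with green H3K4me3 was seen at only 188 of the 12912 red regions, and 2 of them are here.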

How the data were processed

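Chromatin immunoprecipitation libraries were sequenced as single-end reads of 36 bp, 34 bp after processing, per the labels' protocols. Reads were aligned with BWA, per the submitters' processing notes, which name the builds NCBIM37 and mm9. The aligner's version, the region caller, its thresholds, its use of inputs and any pooling of replicates were not given in the sources used here. A deposited score column holds 1000 throughout and measures nothing. The deposited positions have no other unit than bp, and all starts and widths are multiples of 25 bp. Depth is unknown, so no precision per region could be given.

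Starts were converted to 1-based. Regions within 5 kb (gap from end to next start) were chained, and 2 regions were called shared with 1 bp or more in common. Python 3.11.15, pandas 2.3.3 and SciPy 1.17.1 were used. The functions were tested on simulated regions. The planned fits per library and the promoter, gene and marker lists were not run, since the lists hold no value per library and the gene table is on GRCm38. Named were the 10 widest regions and the 10 largest clusters per colour, the 5 fullest windows of 1 Mb per colour, the display window, and the autosomes with extreme green shares. The members and lists were chosen with earlier results of these data known. The stretches of either colour, those of nearly pure colour, the gap classes and the Notch1 profile were chosen after their values were seen.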

Additional observations from a re-analysis of the deposited data

How the results depend on the processing

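No paired analysis was possible because the list holds no value per library. Leaving out a replicate was likewise not possible. Limits to regions of 500 bp or more, gaps of 1000 to 1175 bp left out, the 10 largest stretches left out and flanks at 500 to 1000 bp were chosen after seeing the data. Of 64 alternatives on 19 values, 20 stayed within 1.5 times (counts), the interval (shares) or 1 SD (widths). Red stayed the more numerous, broader and more often Notch1-bound colour in each alternative run on those values. By construction, fewer regions (4324 green, 7354 red) reached the median width. The green share was 38.3% of bases, 41.6% with regions merged within 1 kb and 37.0% at or above the median width. The share in clusters was 41.7% green and 35.8% red at a gap of 1 kb, 82.4% and 70.5% at 10 kb, and 58.3% and 50.0% at or above the median width. Clusters of 10 or more numbered 0 and 0, 101 and 93, and 4 and 4 in the same order, so that the green lead of 66 to 39 was nearly gone at 10 kb. Neighbours of the same colour were 59.9% within 1 kb, 60.1% among regions of 500 bp or more and 60.9% without gaps of 1000 to 1175 bp. The excess of opposite pairs above 1 kb was 1.30 times among regions of 500 bp or more.

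With 50% of the region covered, a Notch1 peak met 0.124% of green and 17.1% of red regions, H3K4me3 0.776% and 7.65%, and H3K9ac 0% and 0.157%. At or above the median width Notch1 met 1.53% and 32.1%, H3K4me3 3.26% and 16.1%, and H3K9ac 0.467% of red. At 500 to 1000 bp Notch1 met 18.7% of red, H3K4me3 1.98% and 9.92%, H3K9ac 0% and 0.179%, and a green region within 2 kb was found at 29.1% of red regions with and 28.6% without a peak. With each cluster counted once Notch1 met 2.22% and 36.0%, H3K4me3 4.44% and 19.5%, and H3K9ac 0.464% of red.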

Other observations

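The longest gaps between autosomal H3K27me3 regions were 12.2 Mb on chromosome 15 (13103776 to 25340875), 11.9 Mb on chromosome 1 (108609626 to 120523075) and 7.60 Mb on the same chromosome (140745626 to 148344950). Per 100 protein-coding genes of RefSeq's GRCm38 table, green regions numbered from 26.6 on chromosome 17 to 78.9 on chromosome 19, and red ones from 38.1 on chromosome 16 to 86.7 on chromosome 15. Over the 19 autosomes the number of regions went with the number of protein-coding genes (Pearson's r 0.85, Spearman's rho 0.85) and green density with red density (0.78 and 0.76). Both are descriptions over chromosomes, whose length and gene density they share.

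The jump in opposite-colour neighbours at a gap of 1 kb was also in the H3K4me3 list, where 646 opposite pairs had gaps of 1000 to 1175 bp and 63 had gaps of 800 to 975 bp, while same-colour pairs numbered 126 and 185. In the H3K9ac list there were 6 and 1 opposite pairs. In the H3K27me3 list, 331 neighbours touched with no base between them, and 169 of these pairs had opposite colours.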
